A study of Homo sapiens with 9 samples.

Results

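Small nucleolar RNAs (snoRNAs) and small Cajal body RNAs (scaRNAs) were read on arrays of A549 cells, an established human lung adenocarcinoma line. The members were chosen by name and by their measured level: they were the rows of the deposited table with exactly 1 gene symbol, that symbol beginning with SNORA, SNORD or SCARNA and a digit, and with a mean over the 9 arrays at or above the median of all row means, 4.25 on the log2 scale. Of 67528 rows in all, 280 met the rule on symbols and 185 of these also met the rule on level, while 95 lay below it. The 185 members comprised 103 box C/D rows (SNORD), 67 box H/ACA rows (SNORA) and 15 Cajal body rows (SCARNA). They carried 166 distinct symbols and 167 distinct sets of values, since 23 rows shared all their values with another member. SNORD117 had 8 rows with 1 set of values, SNORD32B and SNORA38 had 7 rows each with 2 sets, and SNORD3B-1 and SNORD3B-2 had the same values. Another 109 rows that name a snoRNA beside other genes were not members. The level that chose the members is given below as a description only.

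The 3 groups were A549 cells given mixed small interfering RNAs against FAM210B (si-FAM210B), cells given them against UQCRC2 (si-UQCRC2) and cells given a negative control (si-negative control). Each group had 3 arrays of total RNA taken 72 h after transfection, and no other agent or allele is named for any group. The arrays are labelled biological replicates but nothing says that they came from separate cultures, so p-values measure only the spread between these arrays. FAM210B is a mitochondrial membrane protein linked to heme synthesis, and UQCRC2 is a core subunit of respiratory complex III.

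Most human snoRNAs are cut from the introns of host genes and then work as guides that pair with a target RNA. Box C/D RNAs guide ribose methylation and box H/ACA RNAs guide pseudouridylation, mainly of ribosomal RNA, while scaRNAs guide the same modifications on spliceosomal RNAs in Cajal bodies. A few snoRNAs take part in cutting the ribosomal RNA precursor instead, and the imprinted clusters SNORD113 and SNORD114 on chromosome 14 and SNORD115 and SNORD116 on chromosome 15 have no agreed ribosomal target. SNORD116 is lost in the deletions that cause Prader-Willi syndrome. The labelling reads any RNA of a snoRNA's sequence, so the mature RNA and an unspliced host transcript cannot be told apart here, and neither can fewer cells and less RNA per cell.

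Both imprinted clusters with members lie inside long host transcripts, MEG8 for SNORD113 and SNORD114 and SNHG14 for SNORD116, by their RefSeq spans with strand not checked. Windows around gene starts at these loci are shown because the members that rose in si-UQCRC2 cells came from these clusters. Each window runs from 250 bases before the start through the first 50 bases of the transcript on the plus strand of GRCh38.p14, from RefSeq, with CG dinucleotides, where imprinted promoters carry methylation, in capitals. They are SNHG14 at chr15:24823358-24823657, SNURF, which starts in the imprinting centre within the SNHG14 span, at chr15:24954737-24955036, and MEG3, the noncoding gene of the chromosome 14 locus, 1 of its 3 listed starts, at chr14:100825858-100826157.
SNHG14: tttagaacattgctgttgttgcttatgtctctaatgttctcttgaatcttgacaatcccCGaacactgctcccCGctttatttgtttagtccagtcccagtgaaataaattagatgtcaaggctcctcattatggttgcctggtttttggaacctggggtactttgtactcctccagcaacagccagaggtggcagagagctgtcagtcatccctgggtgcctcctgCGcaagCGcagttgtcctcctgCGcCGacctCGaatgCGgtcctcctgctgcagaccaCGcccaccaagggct
SNURF: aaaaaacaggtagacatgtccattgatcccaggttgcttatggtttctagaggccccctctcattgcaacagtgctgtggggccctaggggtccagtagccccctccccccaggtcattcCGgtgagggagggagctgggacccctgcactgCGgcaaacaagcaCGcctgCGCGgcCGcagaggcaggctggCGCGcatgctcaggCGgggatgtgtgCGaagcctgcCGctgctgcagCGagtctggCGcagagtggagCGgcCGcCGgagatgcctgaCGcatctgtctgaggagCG
MEG3: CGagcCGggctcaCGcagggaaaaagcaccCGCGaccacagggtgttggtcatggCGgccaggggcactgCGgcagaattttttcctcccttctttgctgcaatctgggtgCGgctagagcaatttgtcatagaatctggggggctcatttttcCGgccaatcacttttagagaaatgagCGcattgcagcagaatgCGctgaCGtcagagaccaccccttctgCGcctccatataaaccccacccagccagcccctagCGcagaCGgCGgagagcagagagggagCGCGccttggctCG

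The windows held 9 CG dinucleotides for SNHG14, 18 for SNURF and 19 for MEG3, against a median of 14.0 over 35116 windows of the same length. Methylation was not measured. The MEG3 window held the cAMP response element TGACGTCA 50 bases before the start, a CCAAT box (CCAAT) 93 bases before it and a TATA box (TATAAA) 18 bases before it. Searched on both strands, these letters occur in 1.85%, 34.6% and 11.5% of all windows, and none of the 3 was found in the SNHG14 or SNURF windows. The matches are descriptions of letters, not of bound sites.

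Box C/D members had the highest levels, with a median of 7.24 on the log2 scale, against 7.02 for Cajal body rows and 6.23 for box H/ACA rows. The brightest row was SNORD13, a guide for acetylation of the small-subunit ribosomal RNA, at 13.05. It was followed by SNORD3A at 11.46, SNORD3D at 11.30, and SNORD3B-1 and SNORD3B-2 at 11.22, copies of the abundant nucleolar RNA needed for early cuts of the ribosomal RNA precursor. Of the box H/ACA guides, SNORA48 (10.89), SNORA23 (10.57), SNORA21 (10.52), SNORA22 (9.76) and SNORA71A (9.68) had the highest means. Of the scaRNAs, SCARNA12 (9.47), SCARNA17 (8.38), SCARNA7 (8.05), SCARNA5 (8.00) and SCARNA22 (7.94) did. Array signals depend on the probe as well as on the RNA, so these values describe rows and do not rank molecules. Just inside the level rule lay SNORA30 at 4.27, SNORA16B at 4.30 and one SNORA38 row at 4.31, and just outside it SNORD116-16 at 4.14, SNORD114-12 at 4.12 and SNORD11B at 4.11.

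**Figure D1:**
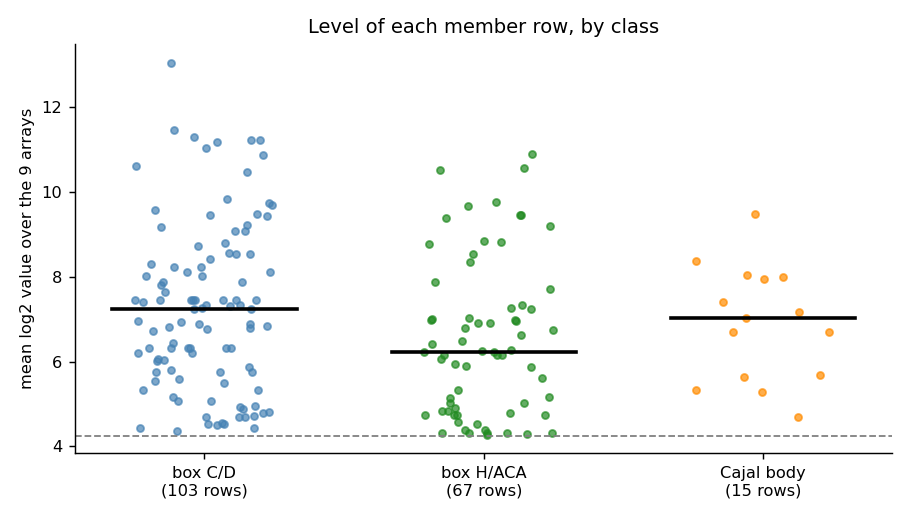
Mean log2 value over the 9 arrays (vertical axis) of each of the 185 member rows, by class; thick lines mark class medians of 7.24, 6.23 and 7.02, and the dashed line the level rule at 4.25. Box C/D rows reach up to 13.05, and box H/ACA rows gather toward the lower end.

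The class with the fewest low rows was box H/ACA, where 4 of 71 rows with such a symbol lay below the rule, against 85 of 188 box C/D rows and 6 of 21 Cajal body rows. Much of the box C/D loss fell in the repeated clusters. All 31 rows of SNORD115, the neighbour cluster of SNORD116, lay below the rule with means from 2.04 to 2.84. SNORD116 had 9 members of 19 rows, SNORD114 had 11 of 31 and SNORD113 had 2 of 9.

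The arrays were set against each other first as a whole. The knockdown label was checked on the targets. UQCRC2 read 8.34, 8.37 and 8.37 in si-UQCRC2 cells, against 9.96, 9.84 and 9.70 in control cells, a log2 fold change of −1.47 (limma adjusted p = 0.000413). FAM210B read 6.48, 6.10 and 6.22 in si-FAM210B cells, against 6.39, 6.46 and 6.48 in control cells, a difference of −0.17 that did not pass the test (limma adjusted p = 0.242), and replicate 1 read as high as control. Without si-FAM210B replicate 1 and control replicate 3, arrays that earlier results of these data set apart, FAM210B was lower, with a log2 fold change of −0.26 over control (limma adjusted p = 0.0220) and −0.30 over si-UQCRC2 cells (limma adjusted p = 0.00834). Leaving out replicate 1 removed the highest FAM210B value of its group, and 23.3% and 23.6% of all rows tested passed in that fit. The name si-FAM210B below stands for the arrays labelled so, and every direction drawn from them rests on that label. All 14 A549 and epithelial markers with a row lay at or above the level rule, and their summed log2 level was 132 to 135 in si-FAM210B arrays, 137 to 138 in si-UQCRC2 arrays and 137 in control arrays. Of these 14 markers 4 fell in si-FAM210B cells, CDH1 (log2 fold change −1.09, limma adjusted p = 1.93e-05), ALDH3A1 (−0.46), AKR1C2 (−0.40) and AKR1C1 (−0.36), the last 2 not in a fit of only these 2 groups. In si-UQCRC2 cells KRT19 rose by 0.73 and EPCAM by 0.24. The part of these changes in the results below was not tested. Of 11 markers of other cell types 7 lay above it, with sums of 47.0 to 49.2, 46.5 to 46.8 and 46.2 to 47.6 in the same order.

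In si-UQCRC2 cells 13 of the 185 members differed from control, 12 higher and 1 lower, by limma across all 16863 rows with 1 symbol at or above the level rule and an adjusted p under 0.05. That is 7.03% of the members, where the background over all rows tested was 4.51%, with 3.04% higher and 1.47% lower. All 12 that rose were repeats of the imprinted clusters, 8 of 13 rows of SNORD113 and SNORD114 and 4 of 9 rows of SNORD116. The median log2 fold change was 0.47 over SNORD113 and SNORD114 and 0.40 over SNORD116, against −0.05 over the other 163 members and −0.01 over all rows tested. Members of 1 cluster share a host transcript and similar sequences, so they are not independent of each other.

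In SNORD114, SNORD114-14 had the firmest difference. It read 7.23, 7.33 and 7.18 in si-UQCRC2 cells, against 6.51, 6.62 and 6.54 in control cells, a log2 fold change of 0.69 ± 0.07 (SE, n = 3 each; limma adjusted p = 0.000554). All si-UQCRC2 arrays lay well above all control arrays, and the call held when any 1 of the 9 arrays was left out. SNORD114-17 read 5.81, 5.71 and 5.82 in si-UQCRC2 cells, against 4.91, 5.18 and 4.97 in control cells, a change of 0.76 ± 0.12 (limma adjusted p = 0.00679). It too kept its call without any 1 array. SNORD114-3 read 5.16, 5.47 and 4.99 in si-UQCRC2 cells, against 4.61, 4.26 and 4.39 in control cells, the largest change of the members at 0.79 ± 0.14 (limma adjusted p = 0.0134). Its arrays scattered more within both groups, and the groups still did not overlap.

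SNORD114-21 read 5.30, 5.03 and 5.13 in si-UQCRC2 cells, against 4.48, 4.36 and 4.53 in control cells, a change of 0.70 ± 0.14 (limma adjusted p = 0.0211). SNORD114-20 rose by 0.51, SNORD114-11 by 0.50, SNORD114-1 by 0.38 and SNORD113-4 by 0.35. Over all 13 rows of this cluster, 9 had every si-UQCRC2 array above every control array, as did 14.0% of all rows tested. Of the 5 that did not pass, SNORD114-28 had a fold change of 0.47, SNORD114-25 of 0.23, SNORD113-7 of 0.17, SNORD114-9 of 0.11 and SNORD114-31 of −0.16. SNORD114-31, the last repeat of its cluster by number, was the only member of either cluster with a negative value. Of the 20 SNORD114 rows below the level rule, 18 had a fold change above 0, with a median of 0.12. The median of the 13 members was between 0.39 and 0.47 with any 1 array left out, and 2 to 9 of them passed. Only 2 passed without si-UQCRC2 replicate 1 or 2, where 1.64% and 1.51% of all rows did. With each array centred on the other small RNA rows 4 passed, with 2.34% of all rows.

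SNORD116 had positive fold changes in all 9 member rows. SNORD116-17 read 9.55, 9.62 and 9.60 in si-UQCRC2 cells, against 9.16, 8.88 and 8.89 in control cells, a log2 fold change of 0.61 ± 0.12 (limma adjusted p = 0.0229). SNORD116-18, the brightest of the cluster, read 9.49, 9.50 and 9.52 in si-UQCRC2 cells, against 9.16, 8.91 and 9.05 in control cells, a change of 0.46 ± 0.07 (limma adjusted p = 0.00727). SNORD116-8 read 6.12, 6.11 and 6.10 in si-UQCRC2 cells, against 5.87, 5.66 and 5.61 in control cells, a change of 0.40 ± 0.07 (limma adjusted p = 0.0127). The si-UQCRC2 arrays were nearly equal to each other, and the width of the groups came from the control arrays, of which replicate 1 was the highest in all 3 rows.

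SNORD116-23 rose by 0.32, and the other 5 rows, which did not pass, had fold changes between 0.37 and 0.58. In all 9 rows every si-UQCRC2 array lay above every control array, while 14.0% of all rows tested did so. In control replicate 2 all 9 rows lay below the mean of the other 2 control arrays, and in control replicate 1 all 9 lay above it. Below the level rule 9 of 10 SNORD116 rows had a fold change above 0, with a median of 0.26. The median fold change of the 9 members was between 0.37 and 0.47 with any 1 array left out, but only 1 row passed without control replicate 2 or without any 1 of the si-UQCRC2 arrays. With each array centred on the other small RNA rows the median was 0.43 and no SNORD116 row passed by limma. In the values as deposited 9 of 9 had an unadjusted p under 0.05, as did 2543 of all 16863 rows tested.

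**Figure D2:**
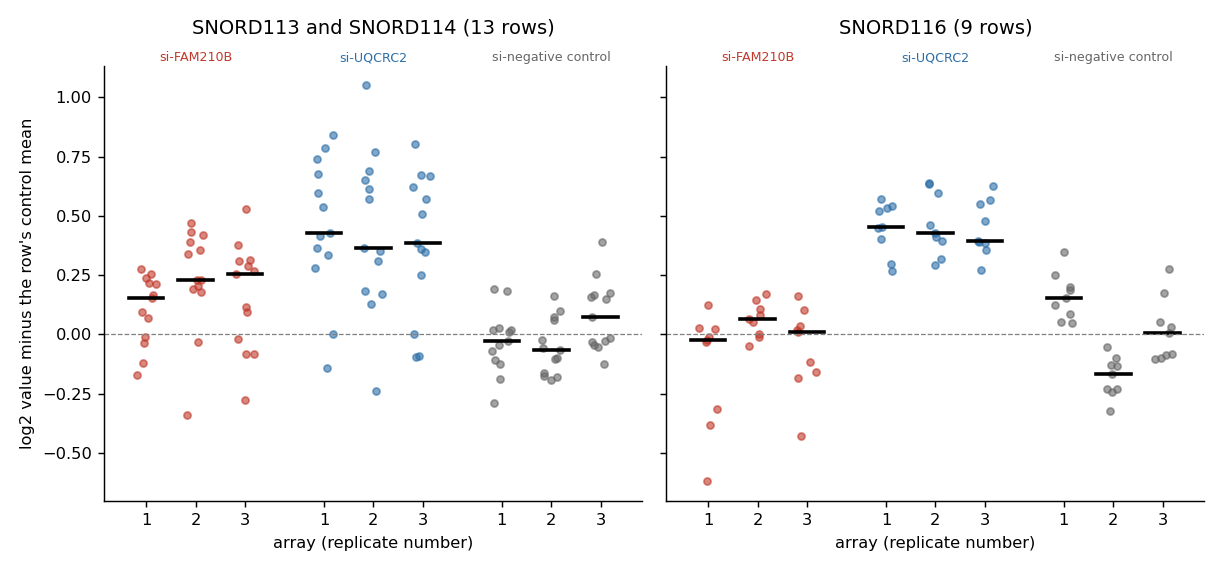
Log2 value minus the row's mean over the 3 control arrays (vertical axis) in each array, by group and replicate number, for the 13 rows of SNORD113 and SNORD114 and the 9 rows of SNORD116; points are rows and thick lines medians. SNORD116 medians are 0.45, 0.43 and 0.40 in the si-UQCRC2 arrays and between −0.02 and 0.07 in the si-FAM210B arrays, and the control arrays differ among themselves.

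The host transcripts gave fewer readings. MEG8 had a row only together with SNORD112. That row read 5.18, 5.20 and 5.16 in si-UQCRC2 cells, against 4.64, 4.86 and 4.84 in control cells, a change of 0.40 (limma adjusted p = 0.0319 in a fit of all 33764 rows at or above the level rule). MEG3, upstream in the same imprinted domain, read 6.78, 6.69 and 6.76 in si-UQCRC2 cells, against 6.40, 6.45 and 6.44 in control cells, and rose by 0.31 (limma adjusted p = 0.0242). The other genes of the domain with a tested row, DLK1 and MEG9, had values of −0.03 and −0.10. Of 12 tested microRNA rows between MEG3 and DIO3 none passed by limma, with a median of 0.01. On chromosome 15, the row shared by SNRPN, SNURF, PWARSN and SNORD107 had a fold change of 0.15 and UBE3A one of 0.06, and neither passed. SNHG14 was named in 4 rows at or above the level rule, each with several SNORD115 or SNORD116 repeats, with fold changes between −0.06 and 0.12, and none passed in the fit of all rows. The row shared by several repeats and IPW, a noncoding RNA of the same domain, had a fold change of 0.28. Another row of this locus, shared by SNORD64, SNORD108 and PWAR5, had one of 0.37, and neither passed. Rows naming only SNORD116 repeats, but several of them, were not members. All 6 of these, which hold 4 distinct sets of values, had every si-UQCRC2 array above every control array, where 14.0% of the rows with 1 symbol did. Their median was 0.41, while that of all 12 rows with SNORD116 in a joint name was 0.33, and 1 of the 6, shared by SNORD116-20 and SNORD116-21, passed in the same fit of all rows, whose background was 1.72%. In that fit 1 member passed in si-FAM210B over control, 6 in si-UQCRC2 over control and 12 between the knockdowns, where the backgrounds were 2.56% and 4.49% in the first and last.

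The only member that fell in si-UQCRC2 cells was SNORD88B. It read 6.69, 6.58 and 6.65 in si-UQCRC2 cells, against 6.94, 6.89 and 6.97 in control cells, a change of −0.29 ± 0.07 (limma adjusted p = 0.0452). The groups did not overlap, but the call was lost without any 1 of the control or si-UQCRC2 arrays. No box H/ACA row of 67 and no Cajal body row of 15 passed by limma, where 3 and 2 had an unadjusted p under 0.05. Of all 16863 rows tested 2543 had one. The median fold change was −0.08 over box H/ACA rows, whose 44 negative values outnumbered 23 positive ones, and 0.00 over Cajal body rows. It moved to 0.00 for box H/ACA rows when control replicate 3 was left out.

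**Figure D3:**
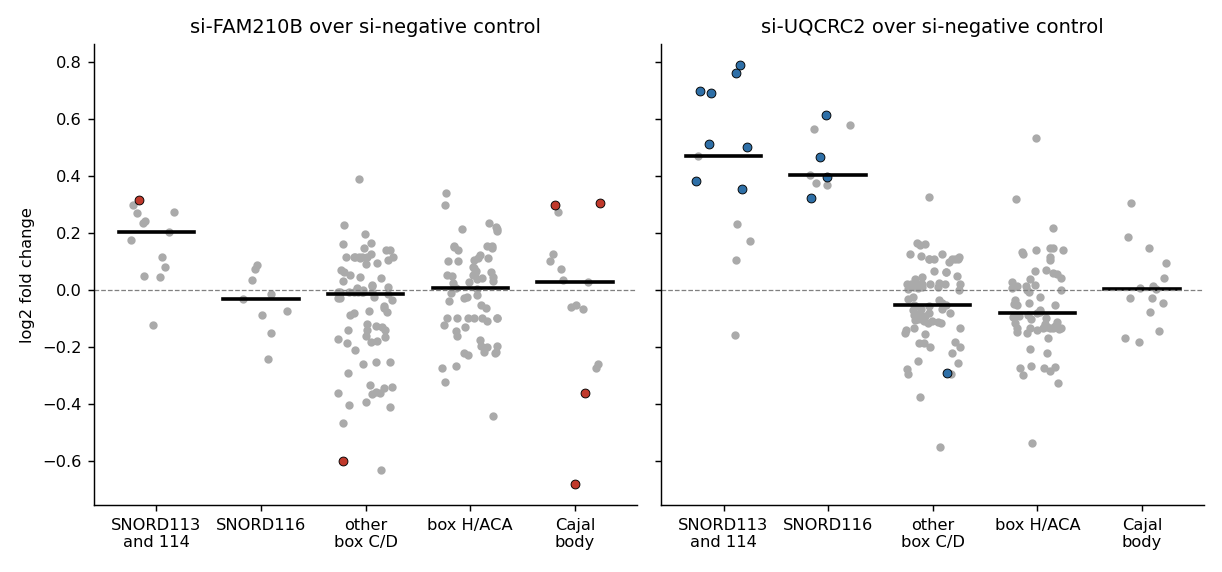
Log2 fold change of each member (vertical axis) in si-FAM210B over control (left) and si-UQCRC2 over control (right), by cluster or class; thick lines are medians, coloured points passed an adjusted p under 0.05. On the right 12 of 13 coloured points belong to SNORD113, SNORD114 and SNORD116, and on the left 4 of 6 are Cajal body rows.

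In si-FAM210B cells 6 of the 185 members differed from control, 3.24% against a background of 5.97% of all rows tested, with 2.63% higher and 3.34% lower. SCARNA22, SCARNA7 and SNORD114-14 rose and SCARNA9L, SNORD70 and SCARNA8 fell, so 4 of the 15 Cajal body rows passed, with 2 of the 103 box C/D rows. Of the 67 box H/ACA rows none passed by limma, and 10 had an unadjusted p under 0.05. Of all 16863 rows tested 4314 had one. The median fold change over all members was −0.01, against 0.03 over all rows tested. The comparison shares its control arrays with the one above.

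SCARNA9L, named for its likeness to SCARNA9 and lying within EIF1AX, read 5.82, 6.38 and 6.37 in si-FAM210B cells, against 7.05, 6.84 and 6.73 in control cells, a log2 fold change of −0.68 ± 0.14 (limma adjusted p = 0.0239). Replicate 1 was the lowest of the si-FAM210B arrays, and all 3 lay below all control arrays. SCARNA8, within HAUS6, read 5.04, 5.07 and 5.18 in si-FAM210B cells, against 5.49, 5.51 and 5.39 in control cells, a change of −0.36 ± 0.08 (limma adjusted p = 0.0243). The groups of SCARNA8 did not overlap. SNORD70, a box C/D RNA within NOP58, itself the gene of a box C/D core protein, read 6.13, 5.94 and 5.75 in si-FAM210B cells, against 6.57, 6.22 and 6.83 in control cells, a change of −0.60 ± 0.15 (limma adjusted p = 0.0458). The control arrays of SNORD70 spread over a wider range than the gap between the groups.

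SCARNA22, a box H/ACA scaRNA made from an intron of NSD2, read 8.04, 8.16 and 8.24 in si-FAM210B cells, against 7.83, 7.92 and 7.80 in control cells, a change of 0.30 ± 0.07 (limma adjusted p = 0.0356). SCARNA7, within KPNA4, read 8.01, 8.28 and 8.15 in si-FAM210B cells, against 7.94, 7.77 and 7.82 in control cells, a change of 0.30 ± 0.08 (limma adjusted p = 0.0472). In si-UQCRC2 cells it had the same size, 0.30, with an adjusted p of 0.0580 by limma. SNORD114-14 read 6.78, 6.98 and 6.87 in si-FAM210B cells, against 6.51, 6.62 and 6.54 in control cells, a change of 0.32 ± 0.07 (limma adjusted p = 0.0282). For these 3 rows all si-FAM210B arrays lay above all control arrays, as in 11.6% of all rows tested, while 12.2% of those had the groups apart in the lower direction.

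None of the 6 calls held in a limma fit of only these 2 groups, where 0 of 185 members passed, against a background of 1.26%. In that fit 23 members had an unadjusted p under 0.05, which was not counted over all rows. Fits of only 2 groups called 21 members in si-UQCRC2 over control and 18 between the knockdowns, with backgrounds of 8.95% and 6.47%. Without control replicate 1 no member passed and without control replicate 2 only 1 did, where 1.96% and 1.80% of all rows passed, while 12 passed without si-FAM210B replicate 2, where 11.7% did. Centring each array on its median gave 3 calls, all in the lower direction, with 3.56% of all rows, where the deposited values gave 3 in each direction. Of the 6 calls only those of SNORD70 and SCARNA8 were kept under that centring. SCARNA9L lost its call there, and another member passed.

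**Figure D4:**
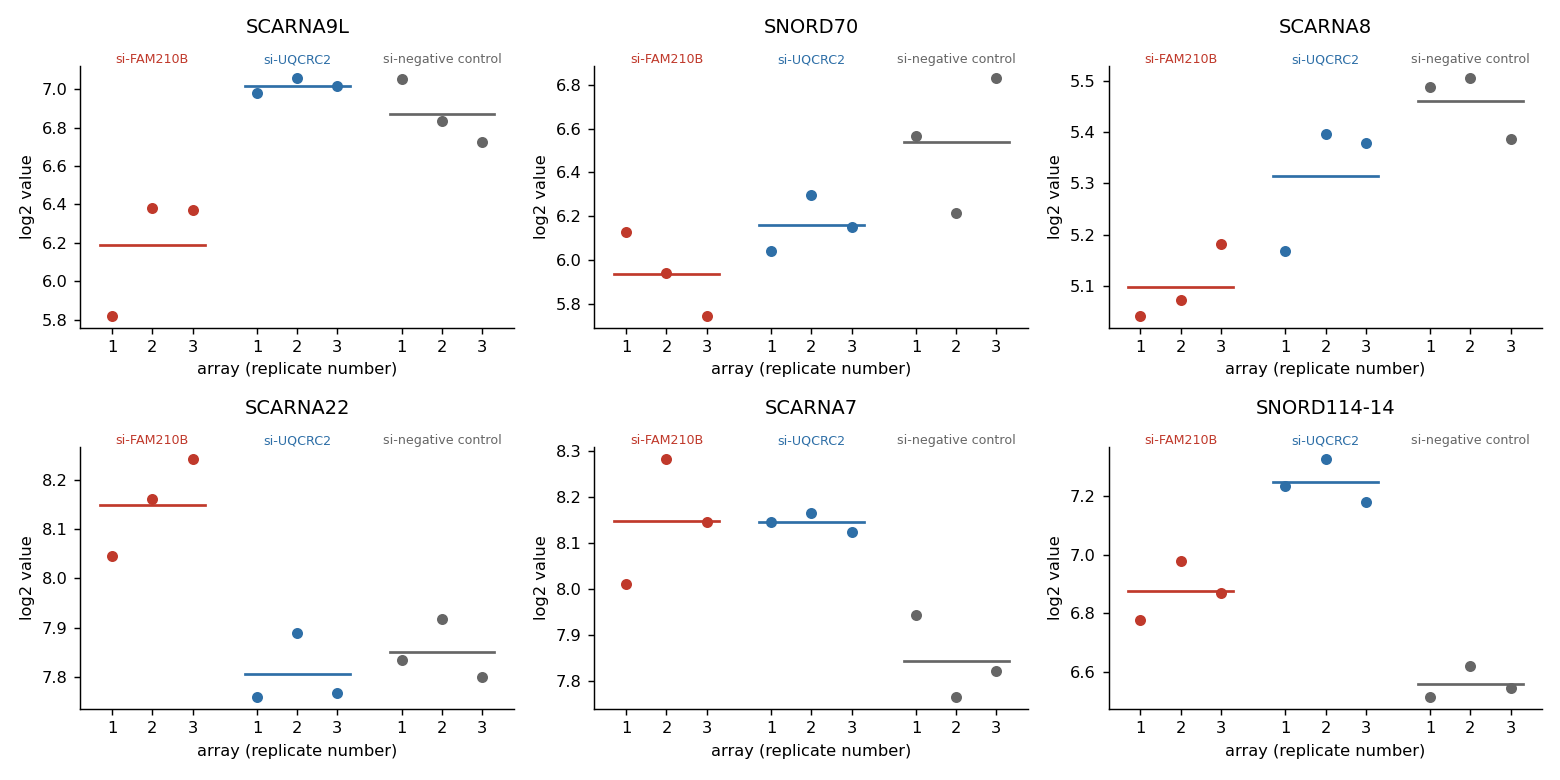
Log2 values (vertical axes, each on its own range that does not start at 0) in every array of the 6 members that passed in si-FAM210B over control; points are arrays, lines group means. SCARNA9L, SNORD70 and SCARNA8 are lower in all 3 si-FAM210B arrays than in any control array, and the other 3 rows are higher.

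With si-FAM210B the clusters that rose with si-UQCRC2 did not share 1 direction. Over SNORD113 and SNORD114 the median fold change over control was 0.20, with 12 of 13 rows above 0 and 1 that passed. With si-UQCRC2 12 of these 13 rows were above 0 too. Of the 20 SNORD114 rows below the level rule 18 were above 0 in each knockdown. Their median was 0.18 with si-FAM210B and 0.12 with si-UQCRC2, and 0.02 between the knockdowns. MEG3 rose, reading 6.92, 6.73 and 6.74 in si-FAM210B cells, against 6.40, 6.45 and 6.44 in control cells, a change of 0.36 (limma adjusted p = 0.0114) that did not pass in a fit of only these 2 groups (limma adjusted p = 0.0829). Over SNORD116 the median was −0.03, and of 9 rows none passed by limma and none had an unadjusted p under 0.05. That median was 0.03 after quantile normalization and −0.11 with arrays centred on the other small RNA rows, so it had no settled direction.

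The knockdowns were also compared directly. That comparison reuses the si-UQCRC2 arrays in which these clusters were high, so it is not an independent test of them. In si-FAM210B cells 20 members differed from si-UQCRC2 cells, 2 higher and 18 lower, 10.8% against a background of 9.89%, with 3.32% higher and 6.56% lower. SNORD116 was lower in 8 of 9 rows, and all 9 had every si-FAM210B array below every si-UQCRC2 array, as in 19.2% of all rows tested. SNORD116-14 read 6.57, 7.24 and 7.04 in si-FAM210B cells, against 7.73, 7.83 and 7.76 in si-UQCRC2 cells, a log2 fold change of −0.82 ± 0.18 (limma adjusted p = 0.0203). SNORD116-17 was lower than in si-UQCRC2 cells by 0.63, SNORD116-15 by 0.64 and SNORD116-18 by 0.39 on the same scale. In SNORD113 and SNORD114, 4 of 13 rows were lower, with log2 fold changes of −0.62 for SNORD114-21, −0.59 for SNORD114-17, −0.46 for SNORD114-20 and −0.37 for SNORD114-14, and the others did not pass.

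SCARNA9L was lower in si-FAM210B cells here too, at 5.82, 6.38 and 6.37, against 6.98, 7.06 and 7.01 in si-UQCRC2 cells, a change of −0.83 ± 0.14 (limma adjusted p = 0.00752). It was the 1 member of the 20 that kept its call with any 1 array left out. The row shared by SCARNA9 and SCARNA9L had a value of −0.59 here and did not pass in the fit of all rows (limma adjusted p = 0.142). SCARNA22 was higher by 0.34 (limma adjusted p = 0.0145), and SNORD104, a box C/D guide and one of the brightest rows, by 0.39. SNORD104 read 10.73, 10.56 and 10.70 in si-FAM210B cells, against 10.34, 10.26 and 10.20 in si-UQCRC2 cells. The other lower rows were SNORA26 (−0.42), SNORD58A (−0.38), SNORA79 (−0.36), SNORA80E (−0.32) and SNORD97 (−0.28). Only 2 to 3 members passed when 1 of the si-UQCRC2 arrays was left out, where 2.98% to 3.52% of all rows did.

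Earlier results of these data set si-FAM210B replicate 1 and control replicate 3 apart as higher on small RNA rows, so their values are given singly, as a description. Relative to the other 2 si-FAM210B arrays, replicate 1 had a median difference of 0.15 over box H/ACA rows, with 47 of 67 above 0. Over the 81 box C/D rows outside SNORD113, SNORD114 and SNORD116 it was 0.19, with 47 above 0, and over the 22 rows of those clusters −0.08, with 7 above 0. Over Cajal body rows it was 0.02, with 8 of 15 above 0. Control replicate 3 had medians of 0.12, 0.05, 0.03 and 0.02 in the same order relative to the other 2 control arrays. Over all rows tested the medians of these arrays were 0.05 and 0.04, but they differed by level. In si-FAM210B replicate 1 the median was 0.14 over the 62 dimmest members, against 0.15 over other rows tested at that level. Over the 61 members with means of 6.02 to 7.46 it was 0.21 against 0.03, and over the 62 brightest −0.0002 against −0.16. In control replicate 3 these pairs were 0.03 and 0.09, 0.05 and 0.03, and 0.13 and −0.04. The classes were not compared with other rows at matched level. The array with the clearest shift over the members was control replicate 2, where 143 of 185 lay below the mean of its group's other arrays, with a median of −0.15. Of all 16863 rows tested 8894 lay below it there, with a median of −0.0065. The 780 other small RNA rows, 427 of them microRNA genes and 227 5S ribosomal RNA genes or pseudogenes, had medians of 6.03, 5.82 and 5.88 in the si-FAM210B arrays, 5.83, 5.81 and 5.78 in the si-UQCRC2 arrays and 5.78, 5.80 and 5.92 in the control arrays. Relative to the other 2 arrays of the group, 552 of these 780 lay below 0 in control replicate 2, with a median of −0.11. Their medians were 0.25 in si-FAM210B replicate 1 and 0.17 in control replicate 3, with 646 above 0 in each.

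**Figure D5:**
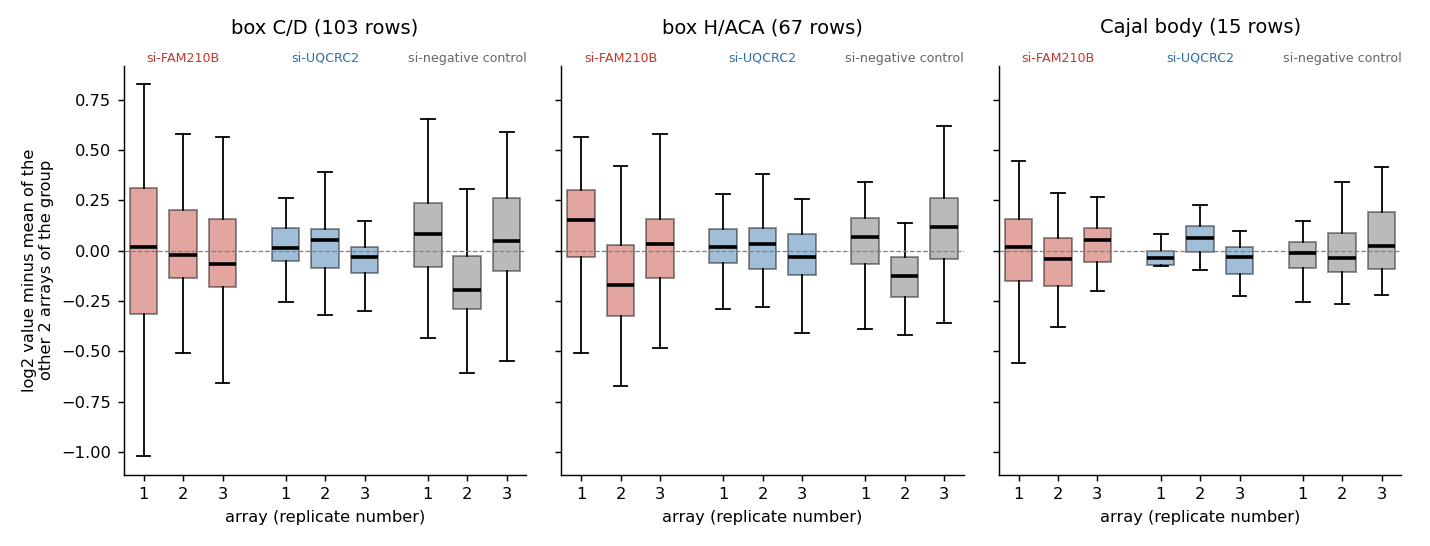
Difference of each member's log2 value from the mean of the other 2 arrays of its group (vertical axis), by class, group and replicate number; boxes span the quartiles, black lines are medians, whiskers reach the last value within 1.5 box lengths and points beyond are not drawn. The box H/ACA median is 0.15 in si-FAM210B replicate 1, and in control replicate 2 the medians are −0.20 for box C/D and −0.13 for box H/ACA rows.

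Within box C/D the replicate 1 array of si-FAM210B went both ways. SNORD83A, which lies within RPL3, read 6.25 there, against 5.61 and 5.23 in the other 2 si-FAM210B arrays. SNORD14B (9.04 against 8.31 and 8.25), SNORD126 (5.47 against 4.87 and 4.59) and SNORD16 (10.08 against 9.36 and 9.35) were also high there, as was the box H/ACA row SNORA38B (7.74 against 6.62 and 6.84). In the other direction SNORD4B, chosen after its values were seen, read 6.21 there, against 7.90 and 7.85 in the other 2 and 7.51 to 7.95 in the remaining 6 arrays. The 4 copies of the precursor-cutting RNA were lower too, with SNORD3A at 10.99, against 11.63 and 11.13. SNORD83A and SNORA38B were also among the 5 rows highest in control replicate 3 over its group, with SNORD114-31, SNORD17 and SNORD8, by 0.55 to 0.62. Across the 185 members the 2 arrays' deviations had a Pearson r of 0.57, and across all rows tested of 0.73, as a description over rows that share the same 6 arrays.

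The spread between replicates differed by group. The median SD of a member was 0.196 in si-FAM210B arrays, 0.0944 in si-UQCRC2 arrays and 0.165 in control arrays, against 0.130, 0.0379 and 0.0873 over all rows tested. SNORA14A, chosen after its values were seen, had the widest spread, at 5.49, 6.22 and 5.11 in si-FAM210B cells, 5.00, 6.68 and 7.18 in si-UQCRC2 cells and 5.22, 6.79 and 5.25 in control cells. Its groups overlapped throughout. With si-FAM210B replicate 1 and control replicate 3 both left out, 19 members passed in si-FAM210B over control, 24 in si-UQCRC2 over control and 30 between the knockdowns, where the backgrounds were 23.3%, 16.9% and 23.6%. These held all 6 and all 13 earlier calls of the comparisons with control and 18 of the 20 between the knockdowns, SNORD58A and SNORD97 being the 2 lost.

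Of the 166 member symbols 154 lay inside the RefSeq span of another gene, and 70 such host genes had a tested row. In si-FAM210B over control none of the 70 passed by limma. An unadjusted p under 0.05 was found for 24 of them and for 4314 of all 16863 rows tested. In si-UQCRC2 over control 2 hosts were higher and 2 lower, and between the knockdowns 3 were higher and 4 lower. These calls were 5.71% and 10% of the hosts, near the backgrounds of 4.51% and 9.89%. NSD2, the host of SCARNA22, read 7.35, 7.49 and 7.47 in si-FAM210B cells, against 7.58, 7.64 and 7.60 in control cells, a value of −0.17 that did not pass, where SCARNA22 rose. In si-UQCRC2 cells NSD2 fell by 0.26 on the log2 scale (limma adjusted p = 0.0364) and SCARNA22 had a value of −0.04. HAUS6, the host of SCARNA8, had a value of −0.38 in si-FAM210B cells, EIF1AX, around SCARNA9L, of −0.29, NOP58, around SNORD70, of −0.33 and KPNA4, around SCARNA7, of −0.09, and none passed. Over 83 members with 1 tested host, the fold changes of member and host had a Pearson r of 0.38 in si-FAM210B over control, 0.14 in si-UQCRC2 over control and 0.36 between the knockdowns, over pairs measured on the same arrays. MEG8 and SNHG14 had no tested row, so these pairs and hosts leave out all members of SNORD113, SNORD114 and SNORD116. Some hosts, such as SNHG17 and NCL, stand in several pairs.

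The proteins that bind and build these RNAs were listed by role, and their calls stand against the same backgrounds of 5.97%, 4.51% and 9.89%. In those comparisons 4314, 2543 and 5083 of all 16863 rows tested had an unadjusted p under 0.05. FBL, the methyltransferase of box C/D particles, read 9.77, 9.80 and 9.79 in si-UQCRC2 cells, against 10.05, 10.07 and 10.03 in control cells, and fell by 0.26 (limma adjusted p = 0.0218). It was the 1 of 3 tested box C/D core proteins that passed there, and none passed in si-FAM210B cells, by limma, with no unadjusted p under 0.05. Of 3 tested box H/ACA core proteins none passed in any comparison by limma, and 1 had an unadjusted p under 0.05, in si-FAM210B over control. Of 16 assembly and cap factors none passed over control in either knockdown by limma, with 9 at an unadjusted p under 0.05 in si-FAM210B and 2 in si-UQCRC2 cells. ZNHIT6, a box C/D assembly factor, was lower in si-FAM210B than in si-UQCRC2 cells, with a log2 fold change of −0.52 (limma adjusted p = 0.0394).

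Of 10 tested Cajal body and scaRNA factors GEMIN4, a part of the SMN complex that builds spliceosomal particles, fell in si-UQCRC2 cells by 0.35, and USPL1, a Cajal body protein, was lower in si-FAM210B than in si-UQCRC2 cells, at −0.46, a call lost in a fit of those 2 groups (limma adjusted p = 0.0561). Of 16 trimming and decay factors ZCCHC8 and RBM7, partners in the nuclear exosome targeting complex, fell in si-FAM210B cells. ZCCHC8 read 6.54, 6.97 and 6.87 in si-FAM210B cells, against 7.45, 7.30 and 7.15 in control cells, a change of −0.50 (limma adjusted p = 0.0302), and RBM7 changed by −0.32. Neither passed in a fit of only these 2 groups, with limma adjusted p of 0.123 and 0.168. The list's median in si-FAM210B over control was −0.27, where that of all rows tested was 0.03. The other lists by role had negative medians there too. These were −0.20 for assembly and cap factors, −0.16 for Cajal body factors and −0.12 for RNA polymerase I and processing genes. The box H/ACA core, box C/D core and known host lists had −0.12, −0.04 and −0.02. Of 23 tested genes of RNA polymerase I and ribosomal RNA processing UBTF, its upstream binding factor, fell in si-UQCRC2 cells by 0.25, and POLR1G and BOP1 were higher in si-FAM210B than in si-UQCRC2 cells by 0.25 and 0.37. Of 10 tested genes of a list of known hosts RPS12 rose in si-FAM210B cells by 0.20, and RPS12 and EEF2 were higher there than in si-UQCRC2 cells by 0.29 and 0.23. In fits of only 2 groups the first and the last of these calls were lost, with limma adjusted p of 0.210 and 0.0730.

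The 5 rows of other genes with profiles most like the members' median over the 9 arrays were TMEM147 (Pearson r = 0.93), MRPS18A (0.91), ALG14 (0.91), C14orf119 (0.91) and B3GALT6 (0.90), the highest of 15898 rows searched and given as a description.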

How the data were processed

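Per the labels' protocols, total RNA from 9 A549 samples was made into biotinylated cDNA and hybridised to Affymetrix arrays. The authors deposited log2 values made with RMA, per the submitters' processing notes, with no version; no software or genome build is named, nor which arrays RMA took in together. RMA removes shifts common to a whole array and can compress differences of weak rows. Arrays have no counting depth, so their number limits the precision.

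From the log2 values, 67528 rows were named through a platform annotation table, in which 23781 had 1 symbol, 1543 several and 42204 none; symbols were checked against RefSeq records of GRCh38.p14, and all 185 members matched, 176 by gene ID and 9 by symbol. limma 3.58.1 (R 4.3.3; lmFit and eBayes, 3 groups, no covariate) was fitted on 16863 rows with 1 symbol and a mean of at least 4.25, the median of all row means, with Benjamini-Hochberg adjustment over all of them and a threshold of 0.05. The fit was tested on simulated data. Rows were not merged by gene; for other genes the row with the highest mean was used. Values above are log2 differences between group means, the first group minus the second. A permutation test of 3 against 3 arrays cannot go below p = 0.1. Host genes were RefSeq genes whose span contains a member; the rule asked for the same strand, but the table used has none, so strand was not checked. No member had a start window in the RefSeq table, so boxes C and D were not searched and no snoRNA sequence is shown.

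Named rows were, per comparison, up to 10 members called in each direction with the largest fold changes, the 5 brightest of each class, the 3 nearest the level rule on each side, the 5 highest in si-FAM210B replicate 1 and in control replicate 3 relative to their groups, hosts of called members, the called genes of each list with the smallest p, and the 5 most like profiles; other names were added. The members and lists were chosen with earlier results of these data known. Alternatives covered filters, scaling, array weights, the samples fitted and arrays left out.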

Additional observations from a re-analysis of the deposited data

How the results depend on the processing

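Of the alternatives run on the members that passed, none turned a fold change round; 521 of 802 such repeats kept the call and 281 lost it. In si-FAM210B over control, where 6 members passed, 1 passed with all rows at or above the level rule, 3 with median centring, 1 with arrays centred on other small RNA rows, 2 with array weights, 0 in a fit of only the 2 groups and 19 without si-FAM210B replicate 1 and control replicate 3 together. In si-UQCRC2 over control, where 13 passed, the same settings gave 6, 8, 4, 93, 21 and 24, and a stricter level filter at the 75th percentile, which kept 123 members, gave 7. In si-FAM210B over si-UQCRC2, where 20 passed, that filter gave 13, all rows 12, small RNA centring 13 and array weights 3. The search for array weights stopped before it converged, with weights from 0.0054 to 21.1. The share of all rows tested that passed moved too. In the first comparison it was 5.97%, and 2.56%, 3.56%, 2.0%, 4.51%, 1.26% and 23.3% in the settings in the order given. In the second it was 4.51%, and 1.72%, 3.21%, 2.34%, 45.8%, 8.95%, 16.9% and, with the stricter filter, 6.57%. In the last it was 9.89%, and 14.5%, 4.49%, 5.79% and 5.02%. The cause of these moves was not tested, except that fits of fewer arrays or more rows change what is pooled and adjusted.

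With 1 array left out in turn, 0 to 12 members passed in si-FAM210B over control, 3 to 22 in si-UQCRC2 over control and 2 to 28 in si-FAM210B over si-UQCRC2, with 1.80% to 11.7%, 1.51% to 10.3% and 2.98% to 20.3% of all rows. Moves over 1.5 times came, in the first, without si-FAM210B replicate 1 (11), 2 (12) or 3 (2), control replicate 1 (0) or 2 (1), or si-UQCRC2 replicate 1 (2), 2 (3) or 3 (2). In the second they came without si-FAM210B replicate 1 (22), control replicate 2 (4) or 3 (8), or si-UQCRC2 replicate 1 (3), 2 (3) or 3 (5), and in the last without si-FAM210B replicate 3 (11) or si-UQCRC2 replicate 1 (3), 2 (2) or 3 (3). Calls that held without any 1 array were SNORD114-14, SNORD114-17 and SNORD116-18 in si-UQCRC2 over control and SCARNA9L in si-FAM210B over si-UQCRC2.

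Same-numbered si-FAM210B and control arrays had correlations of −0.57, 0.51 and −0.38 in their deviations from group means. For si-FAM210B replicate 1 and control replicate 3 the value was 0.73. Deviations within a group depend on each other, so these values cannot tell whether replicate numbers pair the arrays. With a replicate block 1, 7 and 8 members passed in the 3 comparisons in the order above, with 2.39%, 2.11% and 4.98% of all rows. Of 117 repeats of the class medians, 105 moved by less than the spread between replicates. FAM210B itself was read out in 3 of the fits. It passed as lower in si-FAM210B cells without si-FAM210B replicate 1 and control replicate 3. With all arrays or only these 2 groups it did not pass (limma adjusted p = 0.242 and 0.398). Signals near the level rule leave small differences of weak rows unresolved.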

Other observations

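Rows that name a snoRNA beside other genes were not members, and 92 of them lay at or above the level rule. In a limma fit of all 33764 rows at that level, the row shared by SNORA59A and SNORA59B, box H/ACA guides, fell in si-FAM210B cells, at 7.12, 7.24 and 7.06, against 7.49, 7.42 and 7.53 in control cells, a log2 fold change of −0.34 (adjusted p = 0.0424). Its values appear in 2 rows, the only rows of this kind called there, where the background was 2.56%. In si-UQCRC2 cells the row shared by CSKMT and SNORA57 fell by 0.43 (limma adjusted p = 0.0132) and the row shared by RCC1, SNHG3 and SNORA73A by 0.30 (limma adjusted p = 0.0377). The row shared by SNORD116-20 and SNORD116-21 rose by 0.59 (limma adjusted p = 0.0283).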
